A study of Mus musculus with 12 samples.

Results

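The response of the apelin-knockout mouse heart to aortic banding was read from 6 of the 12 arrays of the series, 3 labelled knockout banded and 3 labelled knockout sham. They were chosen by their labelled genotype and surgery alone, and were compared over 34945 probe sets that each name a single gene, 18193 genes in all. The other 6 arrays, 3 wild-type banded and 3 wild-type sham, enter the same fit, where they share the estimate of spread, and are otherwise used to show where the knockout response differs. Each array measured total RNA from a heart, extracted with Trizol and labelled with biotin for Affymetrix mouse arrays. The knockout (KO) mice lack the apelin gene Apln, and the wild-type mice carry it. Banding narrows the aorta, and sham mice are the operated controls. The sources used here do not give strain, sex, age, the time between surgery and collection, the part of the heart taken or the design of the knockout. The labels call the arrays biological replicates and say nothing of separate litters or days, so the p-values measure the spread between these 12 arrays.

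Apelin is a secreted peptide that acts through a G-protein-coupled receptor, Aplnr, on the endothelium and the heart muscle, where it widens vessels and strengthens contraction. A narrowed aorta forces the left ventricle to pump against a raised pressure. A loaded mouse ventricle is known for returning to fetal contractile and peptide genes, for strengthening the sarcomere's anchoring discs, for laying down matrix, and for using less fat as fuel.

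The targeted gene and the tissue were checked first. Apln read 63.7, 111 and 85.4 in knockout sham arrays 1 to 3 and 271, 123 and 160 in knockout banded arrays 1 to 3, against 205 to 333 over the 6 wild-type arrays. The array labelled knockout banded 1 therefore lay within the wild-type range, and the other 5 knockout arrays lay below it. Banded minus sham was 0.92 on the log2 scale, with an exact two-sided permutation p of 0.1, the smallest that 3 against 3 arrays can give. No source used here places the Apln probe set inside or outside the deletion. The 13 ventricular muscle markers summed to 106000 to 109000 in the knockout banded arrays and to 127200 to 141800 in the knockout sham arrays, so ventricular transcripts were abundant in all 6.

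The array labelled knockout banded 1 stood apart in other ways too. It held more airway transcript than the other knockout arrays: Scgb1a1, a club cell secretory protein gene, read 1094 there and 2.93 to 46.6 in the other 5. The 11 lung and airway markers summed to 2491 in it and to 315 to 433 in the other 5. The fat hormone gene Adipoq read 392 against 3.63 to 103, but also 327 in wild-type banded 1. The 7 adipocyte markers summed to 7383 in knockout banded 1, inside the 6100 to 7759 of the knockout sham arrays, so fat transcripts as a group did not set it apart. Over all single-gene probe sets knockout banded 1 correlated at 0.978 to 0.98 with the sham arrays and at 0.973 to 0.974 with the other banded arrays, while banded 2 and 3 correlated at 0.983 with each other. Banded 2 and 3 correlated at 0.966 to 0.969 with the sham arrays, so banded 1 is the banded array most like sham. The call counts and list counts below are given with and without banded 1, and so are the log2 changes of the leading genes. That array was singled out after its values were seen. Leaving out the banded array most like sham can by itself widen the contrast and narrow the spread. Adjusted p-values without it are therefore descriptive. Knockout sham 1 lacked atrial transcripts, with Myl7 at 3.44 against 3549 and 6103 in the other sham arrays, so atrial genes are not read as a banding response. Wild-type banded 3 also stood apart, with Xist, the X-inactivation transcript of female cells, at 1255 against 43.3 to 89.2 in the other 11 arrays, and with Myl7 at 19.6. As a sign of RNA integrity, the 3' over 5' signal of the Actb control probe sets, in log2, was -0.20 ± 0.0231 in banded and 0.15 ± 0.156 in sham knockout arrays (SD, n = 3; exact permutation p = 0.1), and that of Gapdh was -0.33 and -0.36 (exact permutation p = 0.3). The part of these differences in the results was not tested.

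With all arrays, 233 of 34945 probe sets passed for banding in knockout hearts, 137 higher and 96 lower. A probe set passed at an adjusted p under 0.05 in limma, with Benjamini-Hochberg adjustment over all 34945, and 4820 had an unadjusted p under 0.05. Counting each gene once, by its probe set of highest mean, 151 genes passed: 88 rose, which is 0.484% of all genes, and 63 fell, which is 0.346%. Their 3 banded arrays lay beyond their 3 sham arrays in all 151, which a call made on these same arrays favours by itself. Over all genes, 9.62% had every knockout banded array above every sham array and 11.4% had every one below. The median log2 change over all genes was -0.01.

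Without knockout banded 1, 1735 probe sets passed, and 1054 genes: 539 higher, 2.96% of all genes, and 515 lower, 2.83%. These hold all 151 genes called with every array. That fit rests on 2 banded arrays against 3 sham arrays, with the spread taken over all groups. Leaving out any other knockout array removed nearly every call: 2 probe sets passed without knockout banded 2, 2 without banded 3, 4 without sham 1, 11 without sham 2 and 2 without sham 3. Leaving out a wild-type array, which enters this comparison only through the shared estimate of spread, left 76 to 160. Other settings of the fit gave 6 to 1594 probe sets.

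**Figure D1:**
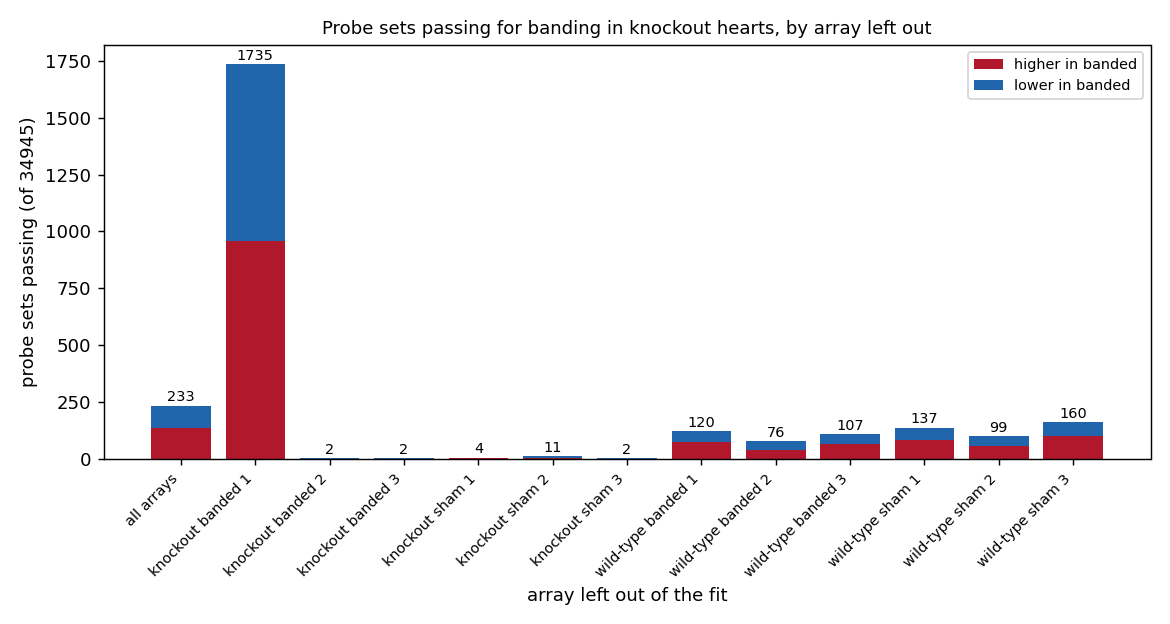
Bars give the number of probe sets, of 34945, that passed for banding in knockout hearts with all arrays and with each array left out in turn, split into those higher and lower in banded hearts. The count is 233 with all arrays, 1735 without knockout banded 1, and 2 to 11 when any other knockout array is left out.

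Genes of the sarcomere's anchoring discs that respond to stretch were the list with the most calls. The lists were chosen with earlier results of these data known, so ranks among lists, here and below, are descriptive. Each list count below stands beside the shares over all genes. These were 0.484% higher and 0.346% lower with all arrays, and 2.96% and 2.83% without knockout banded 1. Of 22 measured, 9 rose and none fell: Ankrd2, Ankrd23, Abra, Fhl1, Pdlim1, Flnc, Synpo2l, Enah and Myot. The list's median log2 change was 0.78, against -0.01 over all genes. In the fit without knockout banded 1, 13 of 22 passed upward, adding Lmcd1, Xirp1, Synpo2 and Rcan1, with a median of 0.999. Members that did not pass include Ankrd1, at 5461 to 6902 in sham and 7711 to 8593 in banded arrays, Csrp3, at 7627 to 8586 and 7775 to 8530, and Fhl2, at 9912 to 10890 and 7731 to 8585. Ankrd1 was higher in every banded array, Fhl2 lower in every one, and Csrp3 overlapped.

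Abra, which encodes an actin-binding activator of serum response factor (SRF) signalling, read 244, 213 and 134 in sham and 635, 1274 and 1169 in banded arrays 1 to 3. It rose by 2.27 (SE 0.267, adjusted p = 0.0126), and its mean intensity was 5.21 times as high. All 3 banded arrays were above all sham arrays, with banded 1 between the sham arrays and the other banded arrays. Ankrd23, a titin-binding ankyrin repeat protein of the same family as Ankrd1, read 1658, 1296 and 1279 in sham and 3640, 5072 and 5651 in banded arrays, a rise of 1.74 (SE 0.303, adjusted p = 0.0348). Its relative Ankrd2 read 5.78, 8.44 and 2.99 in sham and 15.01, 34.8 and 48.7 in banded arrays, which is near the floor of the array even where it rose (1.11, SE 0.223, adjusted p = 0.0475). Synpo2l, a Z-disc protein that binds actin and filamin, read 1905, 1853 and 2254 in sham and 3794, 6555 and 7112 in banded arrays (1.48, SE 0.248, adjusted p = 0.0335). Of its 4 probe sets, 2 passed, and the others besides the brightest ran from -0.08 to 2.26.

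Fhl1, a four-and-a-half LIM domain protein that senses strain at titin, read 2750, 2956 and 2018 in sham and 4322, 7007 and 6982 in banded arrays (1.22, SE 0.187, adjusted p = 0.0278). Enah, an actin assembly factor of the intercalated disc, was tightly grouped at 1677 to 1731 in sham and read 2639, 4384 and 4472 in banded arrays. It rose by 1.13 (SE 0.171, adjusted p = 0.0278) and 3 of its 6 probe sets passed, the others besides the brightest lying between 0.60 and 1.74. Flnc, the muscle filamin that crosslinks actin at the Z-disc, read 443 to 564 in sham and 897, 1155 and 1364 in banded arrays, and both of its probe sets passed (1.15 and 0.998). Myot, which encodes the Z-disc protein myotilin, read 1202, 725 and 888 in sham and 2829, 2576 and 2870 in banded arrays (1.57, SE 0.296, adjusted p = 0.0446). For Myot the array banded 1 was level with the other banded arrays, while for Fhl1 and Enah it lay between the sham and the other banded arrays. Without banded 1 the log2 changes were 2.58 for Abra, 1.92 for Ankrd23, 1.41 for Ankrd2, 1.77 for Synpo2l, 1.455 for Fhl1, 1.37 for Enah, 1.31 for Flnc and 1.55 for Myot, and all 8 passed.

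Of the 15 measured fetal and hypertrophic genes, 1 passed, Mybpc2, with a list median of 0.41, and 3 passed without banded 1, Myh7, Mybpc2 and Uchl1, with a median of 0.34. Nppa, Myl4, Myl7 and Fgf12 of this list are also atrial markers, so both medians can carry the differing atrial content of the arrays. Mybpc2 encodes the fast skeletal form of myosin-binding protein C. It read 95.3, 58.4 and 107 in sham and 419, 483 and 281 in banded arrays, a rise of 1.996 (SE 0.382, adjusted p = 0.0449), or 1.94 without banded 1 (adjusted p = 0.0282). Myh7, the slow myosin heavy chain of the fetal mouse ventricle, had the widest gap of the list. It read 1132, 1656 and 1128 in sham and 9203, 9324 and 9091 in banded arrays, a ratio of means of 7.05. Its log2 change of 2.83 (SE 0.586) had an adjusted p of 0.0531, and the wild-type Myh7 values, which enter the same estimate of spread, ran from 1109 to 10040. Leaving out knockout banded 1 gave a change of 2.83 and an adjusted p of 0.0365. Acta1, skeletal actin, read 4903, 3336 and 1468 in sham and 8138, 8235 and 8976 in banded arrays (1.54, adjusted p = 0.0808). Nppb, the B-type natriuretic peptide gene, read 4240, 1298 and 3159 against 4999, 8018 and 8390 (1.42, adjusted p = 0.179). For Myh7, Acta1 and Nppb no banded array overlapped the sham arrays. The A-type peptide gene Nppa overlapped, at 5899 to 8848 and 7756 to 9560. Myh6, the adult myosin, read 11640 to 12980 in sham and 9688 to 10000 in banded arrays, and the calcium pump gene Atp2a2 9858 to 10820 and 7619 to 8355, both lower in every banded array and neither passing (adjusted p = 0.592 and 0.496).

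RefSeq promoters (build GRCm38.p6) were searched on both strands, in the 250 bases before each start, for the MCAT element GGAATG, the binding site of TEAD factors in muscle genes, the AP-1 site TGANTCA, the E-box CACGTG and the SRF-binding CArG box. Of the 11 genes that rose in the disc, fetal and matricellular lists, 8 matched a promoter and 4 of these held a motif. They are shown because they are members that moved together, with the motif in capitals, each read 5' to 3' on the gene's own strand.
Ankrd23: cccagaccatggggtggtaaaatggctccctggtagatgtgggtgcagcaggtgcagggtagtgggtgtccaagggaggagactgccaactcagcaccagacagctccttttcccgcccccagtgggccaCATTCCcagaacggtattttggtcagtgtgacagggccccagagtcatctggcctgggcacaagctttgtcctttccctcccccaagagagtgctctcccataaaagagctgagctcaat
Flnc: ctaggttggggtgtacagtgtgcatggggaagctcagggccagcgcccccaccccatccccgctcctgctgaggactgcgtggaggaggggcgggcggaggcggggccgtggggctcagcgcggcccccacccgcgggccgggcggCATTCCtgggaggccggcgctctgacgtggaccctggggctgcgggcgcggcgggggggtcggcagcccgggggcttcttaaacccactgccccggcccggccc
Mybpc2: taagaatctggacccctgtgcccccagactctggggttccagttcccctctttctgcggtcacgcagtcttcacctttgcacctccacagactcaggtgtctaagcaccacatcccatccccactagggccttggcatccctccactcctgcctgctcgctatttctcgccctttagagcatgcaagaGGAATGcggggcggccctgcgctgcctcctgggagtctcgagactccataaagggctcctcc
Fhl1: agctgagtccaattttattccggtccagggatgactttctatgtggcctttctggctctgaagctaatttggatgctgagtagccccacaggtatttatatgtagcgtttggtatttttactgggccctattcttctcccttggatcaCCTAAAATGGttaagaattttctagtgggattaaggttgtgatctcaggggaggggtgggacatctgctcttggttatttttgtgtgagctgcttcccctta

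The Ankrd23 window is chr1:36535740-36535989 on the minus strand, before the second of 2 listed starts, with the MCAT element on the opposite strand 120 to 115 bases before the start. The Flnc window is chr6:29433006-29433255 on the plus strand, also before the second of 2 starts, with the element on the opposite strand 104 to 99 bases before it. The Mybpc2 window is chr7:44524670-44524919 on the minus strand, with the element on the gene's strand 62 to 57 bases before the start. The Fhl1 window is chrX:56779433-56779682 on the plus strand, before the first of 2 starts, with a CArG box 102 to 93 bases before it. Over all 14452 genes with a promoter, 13.4% held an MCAT element, 6.70% an AP-1 site, 8.73% an E-box and 1.43% a CArG box. Among the 69 genes that rose and have a promoter the shares were 21.7%, 10.1%, 7.25% and 4.35%, and among the 51 that fell they were 21.6%, 3.92%, 5.88% and 0%. Leaving out knockout banded 1 they were 13.8%, 8.81%, 10.5% and 2.14% of 420 genes that passed upward, and 14.2%, 5.53%, 8.65% and 1.44% of 416 that passed downward. The MCAT share was thus alike in both directions in either fit. A match describes the letters only.

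Matrix and matricellular genes had high medians but few calls with all arrays, and banded 1 read lower than banded 2 and 3 in most of those named below. Of 16 matricellular genes 1 rose, Ccn2, with a list median of 0.82; of 19 collagen chains 1 rose, Col3a1, with a median of 0.74; of 19 collagen-processing genes 2 rose, Loxl1 and P4ha1, with a median of 0.27. In the fit without that array, 7 matricellular genes passed upward and 1 downward (Thbs2), 12 collagen chains passed upward, and 8 processing genes passed upward, with medians of 1.03, 1.03 and 0.44. Over all genes 0.484% rose with all arrays, and without banded 1 2.96% passed upward and 2.83% downward. All 19 collagen chains had a positive change with all arrays, from 0.08 (Col12a1) to 2.16 (Col8a1). In bulk heart RNA, more cells of a type and more RNA per cell cannot be told apart.

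Ccn2, the connective tissue growth factor gene, read 876, 599 and 551 in sham and 1616, 5612 and 6147 in banded arrays. It rose by 2.50 (SE 0.498, adjusted p = 0.0474), and by 3.12 without knockout banded 1 (adjusted p = 0.00158). Banded 1 was above every sham array but far below the other banded arrays. Postn, which encodes periostin, a matrix protein of activated fibroblasts, read 356, 355 and 365 in sham and 639, 4719 and 3978 in banded arrays. Its change was 2.63 with all arrays (SE 0.549, adjusted p = 0.0551) and 3.54 without banded 1 (adjusted p = 1.5e-05). Thbs4, a thrombospondin of stressed muscle, read 98.6 to 159 in sham and 173, 946 and 606 in banded arrays, and the cartilage matrix protein gene Comp 45.1 to 62.3 and 68.4, 674 and 537. Neither passed with all arrays (adjusted p = 0.102 and 0.157), and both passed without banded 1 (0.000771 and 0.00351). Postn, Thbs4 and Comp show the same order of arrays, with banded 1 above the sham range and banded 2 and 3 several times higher still.

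Among the fibrillar collagens, Col3a1 read 1035, 1179 and 1241 in sham and 1751, 4788 and 3897 in banded arrays (1.47, SE 0.297, adjusted p = 0.0496). Col3a1 is thus at the edge of the threshold, where Mpv17 and Nfyc also passed at 0.0496 and Adamts3, Kctd15 and Rrp12 missed at 0.0501. Col1a1 read 257 to 324 and 441, 1068 and 639 (adjusted p = 0.061), and the short-chain collagen Col8a1 170 to 194 and 324, 1540 and 1334 (adjusted p = 0.0629). Of the enzymes, Loxl1, a lysyl oxidase that crosslinks elastin and collagen, read 355 to 384 in sham and 558, 1201 and 1048 in banded arrays (1.23, SE 0.226, adjusted p = 0.0408). P4ha1, a subunit of the prolyl hydroxylase that stabilizes collagen, read 168 to 217 and 312, 704 and 633 (1.36, SE 0.244, adjusted p = 0.0393). Lox itself read 44.0 to 58.6 in sham and 58.5, 448 and 365 in banded arrays, so banded 1 lay inside the sham range (adjusted p = 0.119, and 2.85e-05 without it). Without banded 1 the changes of Col3a1, Loxl1 and P4ha1 were 1.90, 1.56 and 1.71.

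Tgfb2, a ligand of the TGF-beta family, rose at all 4 of its probe sets. It read 69.3, 84.0 and 91.5 in sham and 194, 433 and 389 in banded arrays (1.79, SE 0.264, adjusted p = 0.0278), and the other probe sets gave 1.25 to 1.66. Without banded 1 its change was 2.13. It was the only one of 24 TGF-beta genes to pass with all arrays, where the list median was 0.28. Without banded 1, 8 passed upward, among them Ltbp2, which encodes a latent TGF-beta binding protein, at 31.7 to 45.1 in sham and 46.7, 562 and 621 in banded arrays, and 1 passed downward, the co-receptor gene Tgfbr3. Tgfb1 read 244 to 368 and 381 to 426 and did not pass in either fit.

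The elastic fibre list had a median of 0.54, no rise and 1 fall with all arrays. The fall was Emilin2, a glycoprotein at the edge of elastic fibres, at 589, 723 and 662 in sham and 426, 232 and 176 in banded arrays (-1.28, SE 0.242, adjusted p = 0.0446). Eln, the elastin gene, went the other way, at 115 to 163 and 186, 868 and 604, and Mfap4, a microfibril-associated protein gene, read 3.39 to 9.59 and 10.5, 333 and 161. Without banded 1, 6 of the 12 passed upward, Eln and Mfap4 among them, and Emilin2 again downward. Of 17 proteoglycan genes Vcan rose, the large aggregating proteoglycan versican, at 75.3 to 82.0 in sham and 121, 342 and 268 in banded arrays (1.35, SE 0.262, adjusted p = 0.0463), although its 7 other probe sets ran from -0.53 to 1.33. Without banded 1, 7 of the 17 passed upward. Dcn, which encodes the small proteoglycan decorin, overlapped between groups at 4569 to 5256 and 3904 to 5195. Among 22 proteases and inhibitors Adamtsl2 and Plat rose. Adamtsl2, a secreted regulator of microfibrils and TGF-beta, read 94.0 to 129 and 204, 436 and 399 (1.48, SE 0.24, adjusted p = 0.0327), and Plat, tissue plasminogen activator, 129 to 134 and 215, 335 and 316 (1.02, SE 0.156, adjusted p = 0.0278). A second Plat probe set gave -0.48. Without banded 1, 4 of the 22 passed upward and 1 downward, and the changes of Vcan, Adamtsl2, Plat and Emilin2 were 1.76, 1.80, 1.21 and -1.62.

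Markers of fibroblast cells were set beside these genes. None of 12 fibroblast markers passed with all arrays, where their sums were 8875 to 10820 in sham and 9326, 14260 and 12260 in banded arrays. Without banded 1, 3 passed upward, Col1a1, Col1a2 and Pi16, and 1 downward, Scara5, where 2.96% and 2.83% of all genes did. Tcf21, a transcription factor of resting fibroblasts, read 131 to 190 and 150 to 205. None of 11 activated myofibroblast markers passed either, and they summed to 2841 to 4091 in sham and to 2990, 13730 and 10610 in banded arrays. Without banded 1, 7 of these 11 passed upward: Postn, Cilp, Meox1, Comp, Col8a1, Ltbp2 and Lox. Acta2, smooth muscle actin, is the classical stain of these cells and overlapped between groups, at 1509 to 2942 and 910 to 2101. Several of these markers are also members of the matrix lists, and the part of cell makeup in those lists was not tested. Endothelial markers summed to 4877 to 5462 in sham and 5583 to 6320 in banded arrays with none of 12 passing with all arrays and 1 upward without banded 1, Cldn5.

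Tnfrsf12a, the receptor for the cytokine TWEAK, had the largest log2 change among the genes that passed, and both of its probe sets passed. It read 342, 130 and 218 in sham and 799, 1697 and 1859 in banded arrays (2.58, SE 0.462, adjusted p = 0.0385). It was the only one of 21 cytokine and chemokine genes to pass with all arrays, where the list median was 0.28. Without banded 1, 5 passed upward, with a median of 0.52: Tnfrsf12a, Il6, Osmr, Cx3cl1 and Ackr3. With all arrays the other probe sets ran from -0.20 to 0.11 for Osmr and from -0.18 to 0.37 for Cx3cl1. Fgf6, a muscle fibroblast growth factor, read 5.16, 3.99 and 3.31 in sham and 72.2, 85.3 and 133 in banded arrays (2.45, SE 0.229, adjusted p = 0.00263). Its ratio of means, 23.3, starts from values at the floor of the arrays, and it was not on the growth factor list. Fgf16, a fibroblast growth factor made by heart muscle, fell, from 183 to 227 in sham to 116, 74.2 and 72.3 in banded arrays (-1.11, SE 0.18, adjusted p = 0.0327). Angpt1, the ligand that steadies vessels through the receptor Tie2, also fell, from 491, 690 and 752 to 312, 192 and 135 (-1.58, SE 0.319, adjusted p = 0.0487), at both of its probe sets. Fgf16 and Angpt1 were the only 2 of 26 listed growth factor genes to pass with all arrays, and without banded 1 both passed again and 8 others passed upward. Hbegf, the heparin-binding EGF-like ligand, read 234 to 265 and 367, 892 and 1376 without passing (adjusted p = 0.0672, and 0.000306 without banded 1). Tlr4, the innate receptor for bacterial lipopolysaccharide, read 59.5 to 83.9 and 151, 273 and 261, and 3 of its 4 probe sets passed (1.45 at the brightest, SE 0.226, adjusted p = 0.0287). Without banded 1 the changes were 2.96 for Tnfrsf12a, 2.61 for Fgf6, 1.71 for Tlr4, -1.30 for Fgf16 and -1.88 for Angpt1.

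The other largest rises were mixed in function. Itgbl1, which encodes an integrin-beta-like secreted protein, read 50.8 to 74.0 in sham and 133, 583 and 464 in banded arrays (2.16, adjusted p = 0.0449). Krt18, a keratin of simple epithelia, read 30.1 to 33.4 and 66.2, 265 and 138 (1.68, adjusted p = 0.0463), and the membrane protein gene Emp1 288 to 376 and 558, 1465 and 1294 (1.57, adjusted p = 0.042), with a second Emp1 probe set at 0.01. Cnksr1, a scaffold of Ras signalling, rose by 1.84, Otud1, a deubiquitinase, by 1.67, and the long noncoding RNA gene Hectd2os by 1.56. Of 25 heat-shock and endoplasmic reticulum stress genes, Hsp90aa1 rose, the inducible cytosolic Hsp90, from 1199 to 1568 in sham to 2092, 3194 and 2916 in banded arrays (0.96, adjusted p = 0.0449). Its other 4 probe sets ran from -0.15 to 1.004, and 3 genes of the list passed upward without banded 1. The testis-type Hsp70 gene Hspa1l, which was not on that list, rose by 1.72 from 3.01 to 29.7 in sham to 71.2, 71.9 and 109 in banded arrays (adjusted p = 0.0336). Without banded 1 the changes were 2.77 for Itgbl1, 2.12 for Krt18, 1.99 for Emp1, 1.92 for Cnksr1, 1.64 for Otud1, 1.81 for Hectd2os, 1.14 for Hsp90aa1 and 1.81 for Hspa1l.

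**Figure D2:**
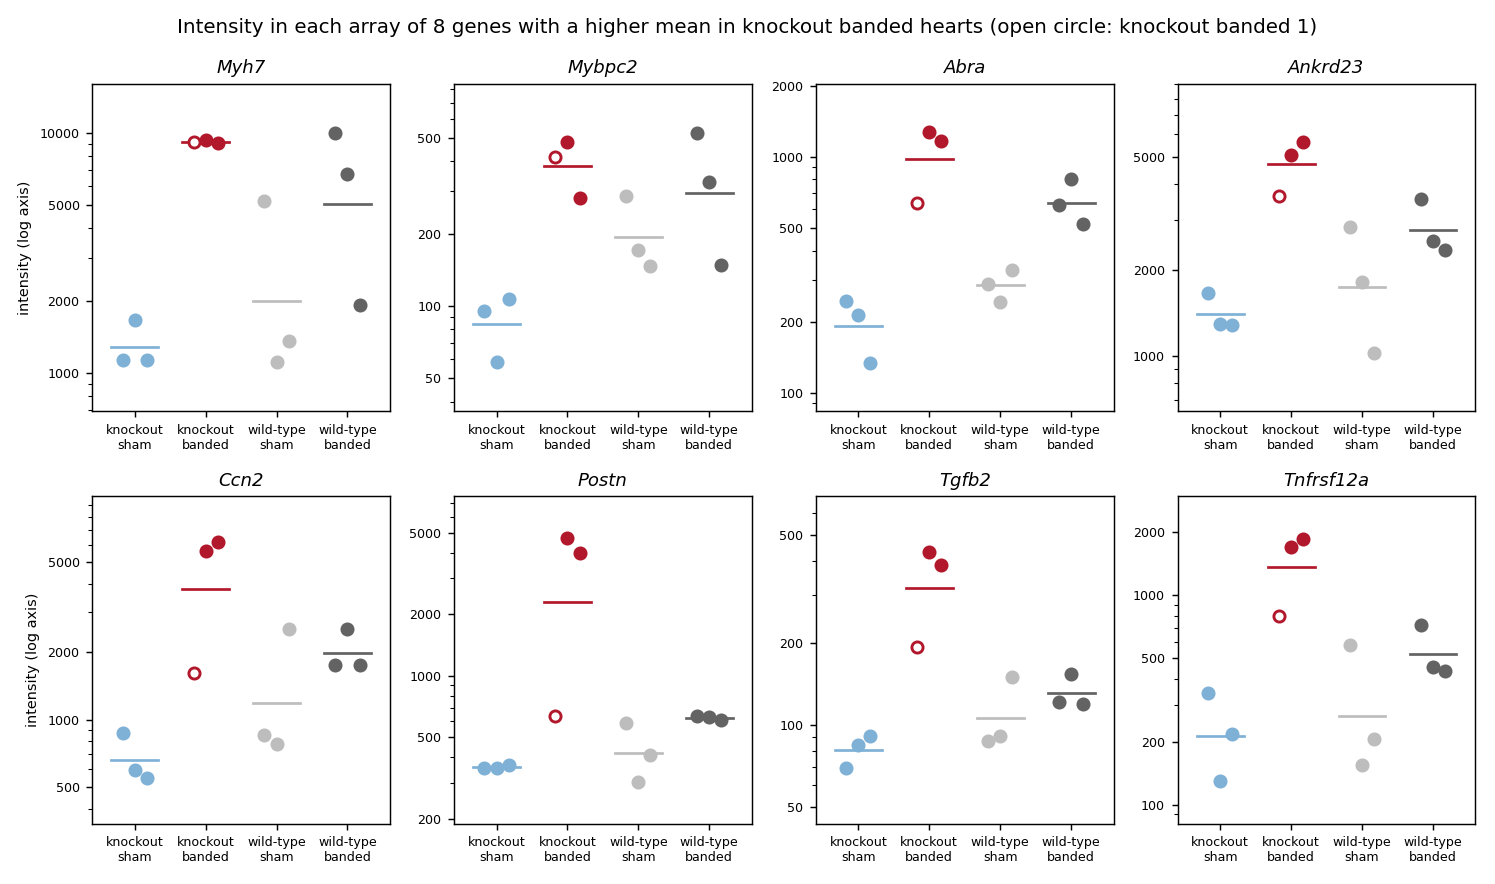
Intensity, on a log axis, of 8 genes in each of the 12 arrays, with short lines at each group's geometric mean of 3 arrays and an open circle for knockout banded 1. All but Myh7 (adjusted p = 0.0531) and Postn (0.0551) passed in knockout hearts, and banded 1 is level with the other banded arrays for Myh7 and nearest the sham arrays for Postn.

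Of the genes that fell, Ano10, an anoctamin membrane protein gene, had the largest log2 fall. It read 882, 1143 and 615 in sham and 359, 174 and 177 in banded arrays (-1.86, SE 0.312, adjusted p = 0.0335). Mylk4, a myosin light chain kinase of heart muscle, read 2157, 1842 and 1891 in sham and 957, 612 and 486 in banded arrays (-1.55, SE 0.21, adjusted p = 0.0228). Ift81, a subunit of the transport particles of the cilium, read 4015 to 4277 and 2132, 1329 and 649 (-1.75, SE 0.328, adjusted p = 0.0446), with 2 of its 3 probe sets passing and the third at 0.09. Abhd8, a hydrolase gene, read 54.0, 65.1 and 107 in sham and 9.53, 12.2 and 8.94 in banded arrays (-1.76, SE 0.265, adjusted p = 0.0278), where all 3 banded values lie at the floor. Abhd8 and Fitm1 are among the falls in which banded 1 was close to the other banded arrays. Without banded 1 the changes were -2.18 for Ano10, -1.82 for Mylk4, -2.14 for Ift81 and -1.74 for Abhd8.

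Fitm1, which encodes a protein of the endoplasmic reticulum that helps form lipid droplets in muscle, had sham and banded arrays that each lay close together. It read 1251, 1263 and 1294 in sham and 610, 539 and 513 in banded arrays (-1.18, SE 0.135, adjusted p = 0.0122). Ccdc141, a coiled-coil protein gene of heart muscle, read 739, 787 and 717 in sham and 438, 344 and 339 in banded arrays (-0.98, SE 0.108, adjusted p = 0.0105), and 3 of its 6 probe sets passed with the others also below 0. Entpd5, a nucleotidase of the endoplasmic reticulum, fell at 4 of its 6 probe sets (-1.08 at the brightest, adjusted p = 0.0335), with the others from -1.23 to -0.38. Gpr22, an orphan receptor of heart muscle, fell at both of its probe sets, from 259 to 358 in sham to 153, 116 and 79.9 in banded arrays (-1.31, SE 0.184, adjusted p = 0.0278). Pla2g5, a secreted phospholipase, fell by 1.54 on the log2 scale, Syt7, a calcium sensor of vesicle fusion, by 1.32, Rbfox1, a muscle and nerve splicing factor, by 1.21, and Slc26a6, an anion exchanger, by 1.19, all with adjusted p from 0.042 to 0.0463. Ppil1, a peptidyl-prolyl isomerase of the spliceosome, and the gene 4430402I18Rik fell by 1.21 and 1.24 (adjusted p = 0.0327 and 0.0481). Without banded 1 the changes were -1.25 for Fitm1, -1.09 for Ccdc141, -1.33 for Entpd5, -1.50 for Gpr22, -1.75 for Pla2g5, -1.54 for Syt7, -1.52 for Rbfox1, -1.47 for Slc26a6, -1.39 for Ppil1 and -1.37 for 4430402I18Rik.

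Potassium channel genes had the lowest median of the 28 pathway lists with all arrays, -0.48, with 1 of 19 passing. Without banded 1 their median was -0.56, and the clock and fatty acid lists were lower, at -0.69 and -0.61. That gene was Kcnh2, which encodes the pore of the rapid delayed rectifier current. It read 734, 694 and 859 in sham and 383, 258 and 229 in banded arrays (-1.37, SE 0.172, adjusted p = 0.0177), a change of -1.58 without banded 1. Kcnd2, a pore of the transient outward current of the mouse ventricle, read 402 to 500 and 349, 185 and 164 (adjusted p = 0.105), and its partner Kcnip2 1604 to 2153 and 1100 to 1483 (adjusted p = 0.172). The other Kcnd2 probe sets ran from -1.24 to 0.35 with all arrays. Without banded 1, 7 of 19 passed downward, Kcnd2, the atrial and nodal subunits Kcnj3 and Kcnj5, and Kcnv2, Kcnk3 and Abcc9 besides Kcnh2. The atrial content of the sham arrays differed, as Myl7 shows, and Kcnj3 read 249 in knockout sham 1 against 403 and 489 in the other sham arrays. Of 11 sodium, calcium and pacemaker channel genes, Cacnb2 fell, a beta subunit of the L-type calcium channel, from 939 to 1049 in sham to 685 to 746 in banded arrays (-0.46, SE 0.0793, adjusted p = 0.0345), with a second probe set at -0.42, and it was again the only one to pass without banded 1, at -0.47. None of 18 calcium-cycling genes passed with all arrays, and 3 passed downward without banded 1, Ryr2, Trdn and Jph1. The other Trdn probe sets ran from -0.97 to 0.02 with all arrays. Ryr2, the calcium release channel, read 4938 to 5435 and 3146 to 3769 (adjusted p = 0.0808, and 0.0408 without banded 1). None of 16 intercalated disc genes passed with all arrays, and 3 passed downward without banded 1, Dsg2, Gja3 and Tmem65. Beside these channel, calcium and disc counts, 0.346% of all genes fell with all arrays and 2.83% passed downward without banded 1.

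**Figure D3:**
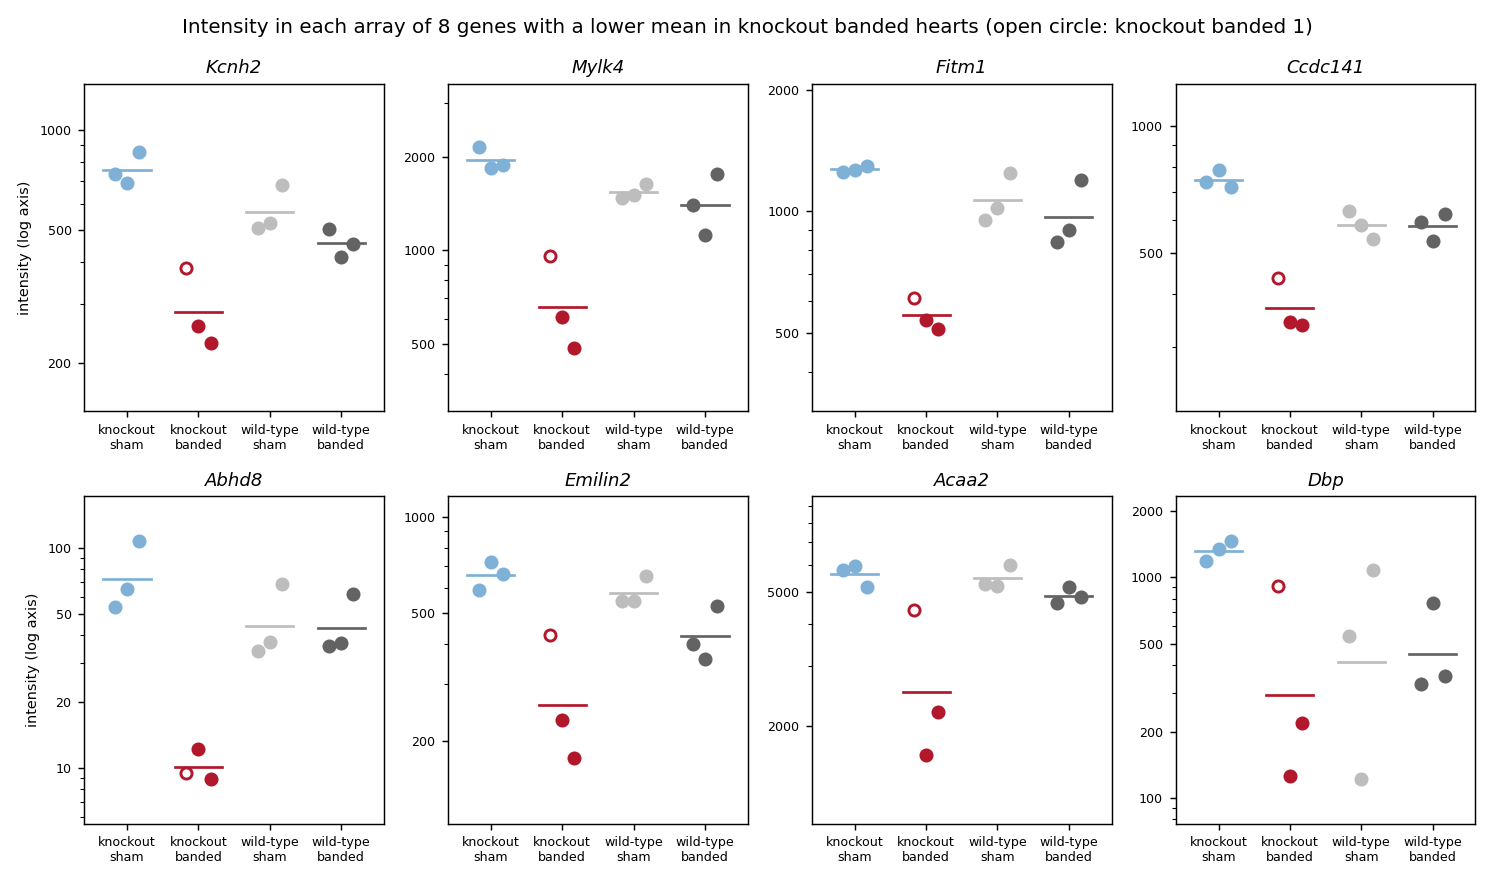
Intensity, on a log axis, of 8 genes in each of the 12 arrays, with lines at each group's geometric mean and an open circle for knockout banded 1. The upper row, Abhd8 and Emilin2 passed in knockout hearts with all arrays, and Acaa2 (adjusted p = 0.0704) and Dbp (0.208) did not.

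None of the genes on the energy metabolism lists passed with all arrays. All 26 measured genes of fatty acid uptake and oxidation had a change below 0, with a median of -0.43 and a range of -1.16 (Acaa2) to -0.03 (Cd36). The median over all genes was -0.01, which is not matched for intensity. The part of a shift in bright signals, described below for the respiratory chain, was not tested for this list or the next. Over all genes 2.83% passed downward without banded 1. Acaa2, the mitochondrial thiolase of the last step of each round, read 5806, 5959 and 5151 in sham and 4406, 1635 and 2190 in banded arrays (adjusted p = 0.0704). Without banded 1, 13 of the 26 passed downward, among them Acaa2 at -1.56, Slc27a1, a fatty acid transporter, at -1.02, and Cpt2, the inner-membrane carnitine transferase, at -0.91. All 23 genes of branched-chain amino acid breakdown were also below 0, with a median of -0.40 and 12 passing downward without banded 1. Bckdhb, a subunit of the dehydrogenase that commits these amino acids to breakdown, read 513, 720 and 638 in sham and 453, 276 and 262 in banded arrays (-0.91, adjusted p = 0.0531).

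All 32 respiratory chain genes had every banded array below every sham array, against 11.4% of all genes, with changes of only -0.49 to -0.23 and a median of -0.32. None of them passed with or without banded 1. The 13 ventricular marker genes had a median of -0.29 and every banded array below every sham array in 12 of 13. The highest intensity on each array was also lower, at 10813 to 11291 in banded and 12544 to 14746 in sham arrays. The share over all genes is not matched for intensity, and the part of a shift in bright signals was not tested. The citric acid cycle list had a median of -0.32, with none of 23 passing with all arrays and 4 passing downward without banded 1, Pdk2, Pdp1, Pdp2 and Fh1. Among regulators of these genes, Ppargc1a, the coactivator PGC-1 alpha, read 846, 820 and 841 in sham and 819, 475 and 488 in banded arrays, and the receptor gene Ppara 510 to 529 and 404, 265 and 303. Both passed only without banded 1 (adjusted p = 0.00405 and 0.035). In that fit 4 of the 17 measured regulators passed downward and none upward. For some targets of these receptors banded 1 was the highest of the 6 arrays: the uncoupling protein gene Ucp3 read 157 to 289 in sham and 685, 74.3 and 81.7 in banded arrays, and the pyruvate dehydrogenase kinase gene Pdk4 997 to 1671 and 5696, 1293 and 2820. Glycolysis and glycogen genes had a median of -0.12 with none of 29 passing, and without banded 1 Pfkp, the platelet-type phosphofructokinase, was among 5 that passed upward, from 324 to 390 in sham to 343, 1054 and 1242. In that fit 2 passed downward, the glucose transporter gene Slc2a4 and the phosphorylase kinase gene Phkg1 (-2.01, adjusted p = 0.00718). Ppp1r3b, a glycogen-targeting subunit of protein phosphatase 1 that was not on the list, fell from 401 to 441 in sham to 239, 294 and 222 in banded arrays (-0.70, SE 0.129, adjusted p = 0.042), a change of -0.67 without banded 1.

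Of 16 genes of NAD synthesis and use none passed with all arrays, and 1 passed upward and 3 downward without banded 1. Nmrk2, the muscle nicotinamide riboside kinase, read 140, 71.0 and 85.8 in sham and 186, 903 and 1603 in banded arrays (2.59, adjusted p = 0.0633, and 0.000207 without banded 1). Nampt, the enzyme of the main salvage route, read 995 to 1250 in sham and 1270, 749 and 661 in banded arrays, and passed downward without banded 1 (adjusted p = 0.00683). Of 25 antioxidant genes Gstk1 fell, a mitochondrial and peroxisomal glutathione transferase, from 1380 to 1389 in sham to 1038, 545 and 554 in banded arrays (-1.01, SE 0.203, adjusted p = 0.0487), a change of -1.31 without banded 1, where 4 of the list passed upward and 3 downward.

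Of 18 clock genes none passed with all arrays, with a median of -0.44. Dbp, a clock output factor, read 1187, 1339 and 1455 in sham and 911, 126 and 218 in banded arrays (-2.10, adjusted p = 0.208). Arntl, the core activator BMAL1, ran the other way, at 24.8 to 48.4 in sham and 57.6, 284 and 225 in banded arrays. A second Arntl probe set gave -0.07 with all arrays. Per3, a repressor of the loop, read 155 to 278 and 167, 42.9 and 54.2. Without banded 1, 7 passed downward, against 2.83% of all genes: Dbp, Per2, Per3, Cry2, Nr1d2, Tef and Hlf. Arntl passed upward at its brightest probe set, so at that probe set an activator of the loop and its output genes passed in opposite directions. In wild-type hearts Dbp ran from 122 to 1079 in sham and 329 to 764 in banded arrays, with a list median of 0.07. No source used here gives the hour of collection, and its part was not tested.

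The 24 immediate-early genes had the highest median of the 28 pathway lists, 1.13, and none passed with all arrays. Fos read 108, 70.5 and 38.8 in sham and 63.1, 1072 and 974 in banded arrays, and Egr1 201 to 403 and 342, 2516 and 2462. Banded 1 lay inside the sham range for both. In wild-type sham hearts alone Fos ran from 40.6 to 1644, a wider range than over the 6 knockout arrays. Without banded 1, 5 passed upward, Fosl2, Maff, Egr2, Nr4a3 and Klf4, and Fos and Egr1 did not (adjusted p = 0.0838 and 0.0715). The other Nr4a3 probe sets ran from -0.43 to -0.36 with all arrays.

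Among 20 genes of adrenergic, angiotensin, endothelin and apelin signalling none passed with all arrays, with a median of -0.04. The apelin receptor gene Aplnr read 829, 532 and 1012 in sham and 868, 1756 and 1143 in banded arrays, so the groups overlapped (0.64, SE 0.485, adjusted p = 0.625). Without banded 1, 3 passed upward and 3 downward. Those upward include Ace, the angiotensin-converting enzyme, Ednrb (adjusted p = 0.00555) and Grk5 (0.00866). Those downward include Agtr1a, the type 1 angiotensin receptor, from 823 to 964 in sham to 538 and 426, and Pde4d (adjusted p = 0.0102). A second Pde4d probe set gave 0.35 with all arrays. Rgs2, a brake on Gq signalling, was 1 of 2 of 14 RGS genes that passed downward without banded 1, at 379 to 620 in sham and 352, 138 and 133 in banded arrays. In that fit 2.96% of all genes passed upward and 2.83% downward.

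**Figure D4:**
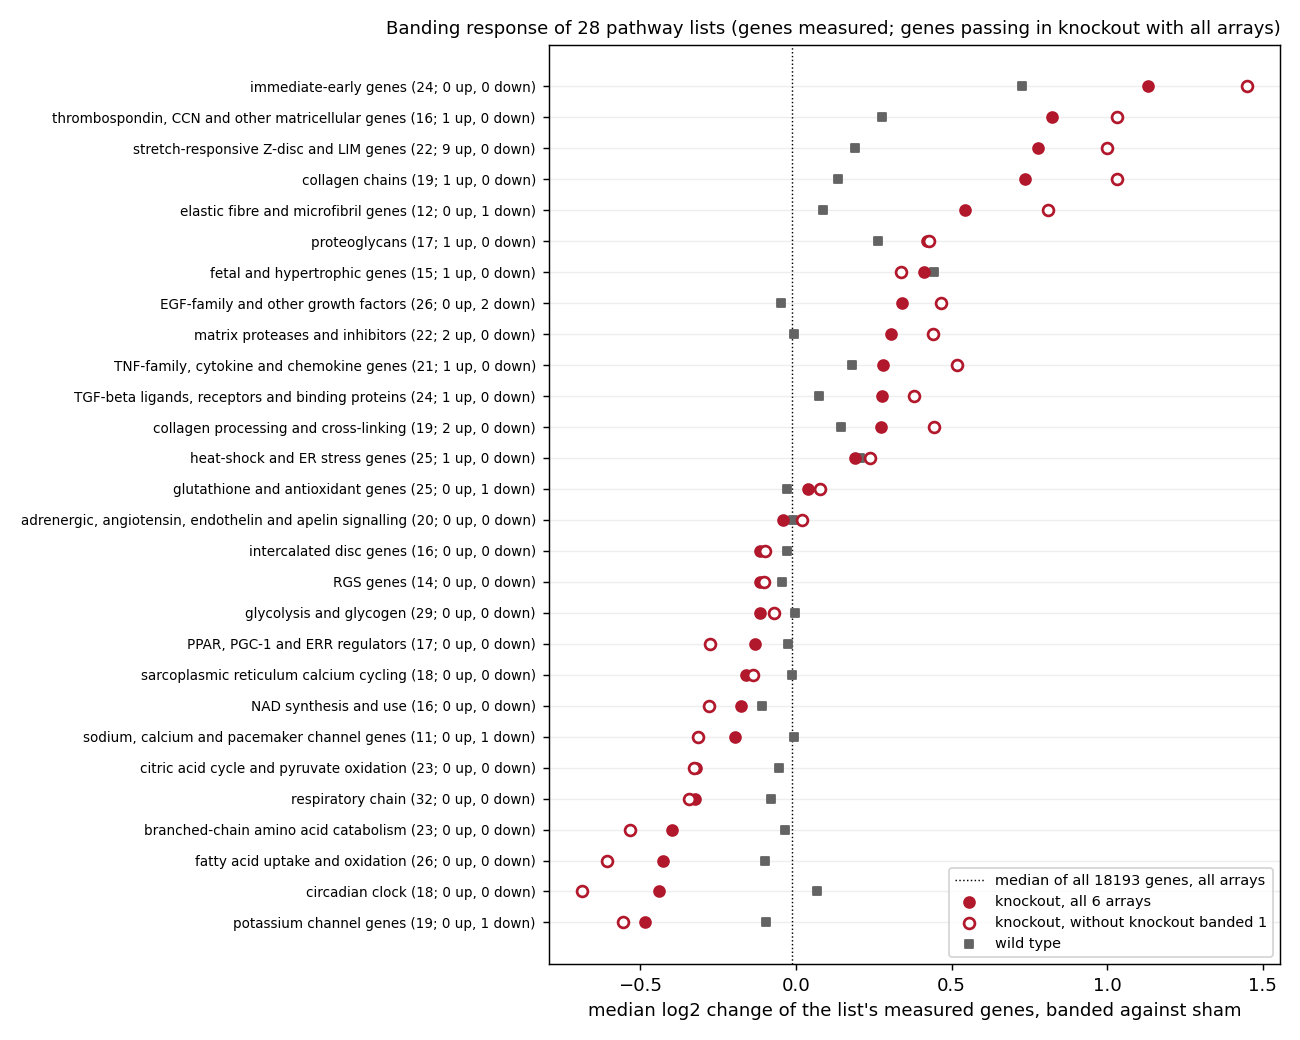
Points give the median log2 change, banded against sham, of the measured genes of 28 pathway lists in knockout hearts with all arrays (filled), in knockout hearts without knockout banded 1 (open) and in wild-type hearts (squares). Brackets give the genes measured and those that passed in knockout hearts with all arrays. The medians with all arrays run from -0.48 (potassium channels) to 1.13 (immediate-early genes), and the dotted line is the median of all genes. The fetal list includes atrial genes.

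Banded 1 took no part in the calls made without it, so it can be placed among those genes, although the sham arrays are shared. A call favours genes whose sham values lie close together and away from banded 2 and 3. That by itself can put a further array beyond the sham arrays, so the shares over all genes are not a matched baseline. Banded 1 lay above all 3 sham arrays in 387 of the 539 genes called higher (71.8%, against 26.9% of all genes) and below all 3 in 346 of the 515 called lower (67.2%, against 27.0%). Its median position was 0.308 of the way from the sham mean to the mean of banded 2 and 3 for the genes called higher (interquartile range 0.13 to 0.512) and 0.29 for those called lower. By list, the median position among members called without it was 1 for fetal genes, 0.521 for disc genes, 0.191 for collagen chains, 0.119 for fatty acid genes and 0.132 for clock genes. The fetal value rests on 3 genes.

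More than 1 probe set was present for 81 of the 151 genes. Another probe set passed in the same direction for 17 of the 81, and for 22 another had the opposite sign. The genes with the most passing probe sets in the same direction were Entpd5 and Tgfb2 with 4 each and Ccdc141, Enah and Tlr4 with 3 each.

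Wild-type hearts, which share no array with these 6, were set beside the knockout response. Their arrays do enter the spread used to call the 151 genes. That favours genes whose wild-type arrays lie close together within a group, so the shares over all genes below are not a matched baseline. In wild type 0 of 34945 probe sets passed in the same limma fit, and 1951 had an unadjusted p under 0.05. Of the 88 genes that rose in knockout hearts, 79 had a positive change in wild type (89.8%, against 43.5% of all genes), with a median of 0.25. Of the 63 that fell, 52 had a negative change (82.5%, against 56.5%), with a median of -0.15. Both genotypes had arrays that did not overlap, in the same direction, for 45 of the 151. Wild-type arrays were apart upward for 33% of the genes that rose, against 3.69% of all genes, and apart downward for 25.4% of those that fell, against 6.05%. Fgf6 was the clearest, at 3.40 to 7.03 in wild-type sham and 33.9 to 62.6 in wild-type banded arrays, and Abra read 242 to 331 and 518 to 807, Otud1 193 to 489 and 601 to 981, and Ano10 681 to 1123 and 303 to 572. For 2 of the 151 the arrays were apart in opposite directions, Ppp1r3b and Mpv17. Ppp1r3b read 327 to 334 in wild-type sham and 336 to 482 in wild-type banded arrays, ranges that nearly meet (adjusted p = 0.884 in limma). Beside the shares over all genes, 3.69% apart upward and 6.05% apart downward in wild type, these 2 are not read as a result.

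The difference between the genotypes in the banding response was tested directly, as the knockout change minus the wild-type change. With all arrays 0 probe sets passed, 2582 had an unadjusted p under 0.05, and no gene can be called particular to knockout hearts. The lowest adjusted p for this difference among the called genes was 0.453, shared by several that include Ccdc141 (-0.97), Fitm1 (-1.04), Ppp1r3b (-0.96), Plat (1.14) and Otulin (1.08). Otulin, a deubiquitinase of linear ubiquitin chains, read 189 to 241 in knockout sham and 406, 609 and 517 in knockout banded arrays, and 228 to 307 and 260 to 314 in wild type. Ccdc141 read 542 to 630 and 535 to 618 in wild-type sham and banded arrays, a change of -0.01.

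Without knockout banded 1, 169 probe sets and 99 genes passed for the difference, 0.544% of all genes. The knockout change was the higher in 60 and the lower in 39, and 98 of the 99 were also called for banding in knockout hearts in that fit. Lox had the smallest adjusted p (difference 2.65, SE 0.216, adjusted p = 0.0012), followed by Postn (2.98, SE 0.267, adjusted p = 0.00163). Lox read 67.9 to 80.1 in wild-type sham and 63.9 to 81.2 in wild-type banded arrays, and Postn 303 to 590 and 609 to 634. Ccdc141, Fitm1, Plat and Otulin passed there, and Ppp1r3b did not (adjusted p = 0.0717). Stretch-responsive genes that passed for the difference were Ankrd2, Fhl1 and Enah, and of the collagen chains Col3a1, Col5a2 and Col8a1 passed. With wild-type banded 3, the array of high Xist, left out as well, 52 probe sets and 29 genes passed for the difference, 28 of them among the 99. Lox (2.57, adjusted p = 0.00395), Postn (2.97, 0.00731), Ccdc141 (0.0274) and Plat (0.0323) passed there, and Fitm1 (0.0573) and Otulin (0.0708) did not. Each of these calls rests on 2 knockout banded arrays and is lost when the array labelled knockout banded 1 is counted.

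**Figure D5:**
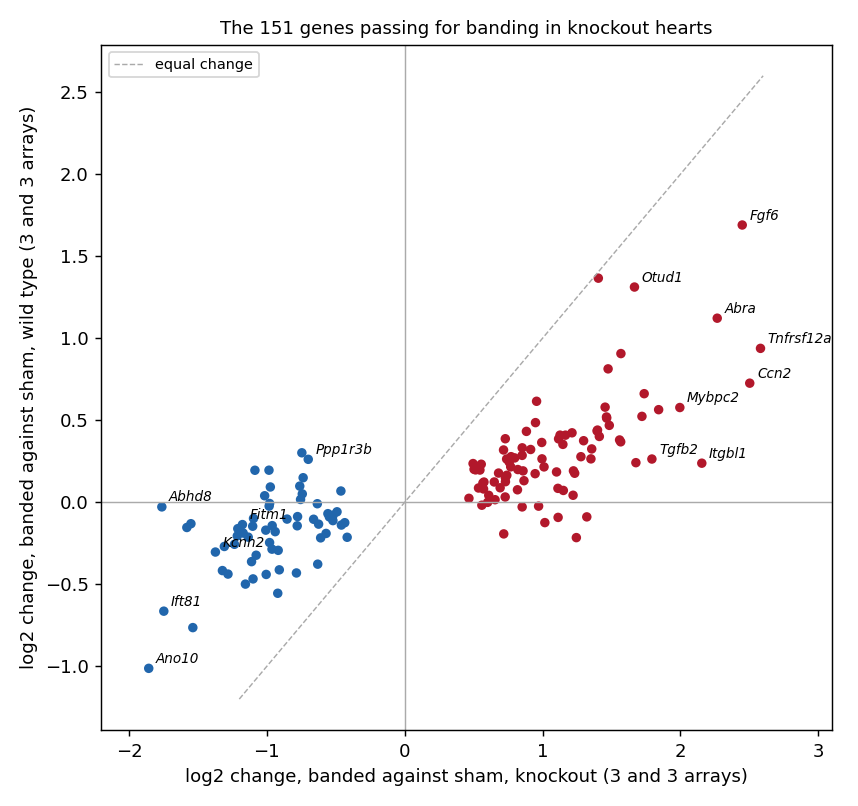
Each point is 1 of the 151 genes that passed for banding in knockout hearts, with its log2 change in knockout hearts on the horizontal axis and in wild-type hearts on the vertical axis, 3 banded and 3 sham arrays each. The genes were chosen by the horizontal axis, which by itself favours larger knockout than wild-type changes; Fgf6 lies at 2.45 and 1.69, and Ccdc141 at -0.98 and -0.01.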

How the data were processed

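The labels describe 12 heart RNA samples hybridised to Affymetrix mouse arrays, 3 per group. The authors deposited 1 linear intensity per probe set and array in the series matrix; the sources used here do not give the software or scaling. The deposited values have a trimmed mean of 150 on each array (2% trimmed at each end). Of 45101 probe sets, 64 controls, 932 of several genes and 9160 without a listed gene were left out; 34741 of the 34945 kept matched RefSeq. Intensity was tested as log2(value + 16), which understates changes of dim genes, with limma 3.58.1 (R 4.3.3), all 4 groups in 1 fit, 8 residual degrees of freedom, eBayes with trend and Benjamini-Hochberg adjustment over all probe sets. Each gene is read at its probe set of highest mean. Named genes are, among called genes whose arrays do not overlap, the 15 largest rises and 15 largest falls; the 8 genes with most probe sets passing one way; up to 4 members of each of 28 pathway lists and up to 5 called genes by genotype difference, each by smallest p; and Apln, Aplnr, Nppa, Nppb, Acta1, Myh7, Myh6, Atp2a2, Ankrd1, Postn and Ccn2. Other members of the pathway and marker lists may be named. Of 738 listed genes 684 matched. The members, lists and 15 marker lists were chosen with earlier results of these data known. Tested on simulated data, the fit recovered 80.3 of 100 features changed 2-fold and 98.0 of 100 changed 4-fold among 34945, with 4.8% false calls, over 3 runs. The simulated noise was normal and independent, and only features above the median intensity were changed. No simulated array stood apart as knockout banded 1 does, so these rates need not hold for the real comparison. Alternatives covered filters, pseudocounts, scaling, variance models and each array left out. The number of arrays limits the precision.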

Additional observations from a re-analysis of the deposited data

Results flagged for a closer look

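The banding response was set against that of wild-type hearts for the genes named in the report. With all arrays 0 genes passed for the difference between the genotypes in limma. Without knockout banded 1, which was singled out after its values were seen, 99 genes passed, so that count is descriptive. Among the named genes with a difference in that fit, Fitm1 differed by -1.11 on the log2 scale (adjusted p = 0.0415), Ccdc141 by -1.09 (0.00951), Plat by 1.33 (0.0127) and Otulin by 1.23 (0.0261). With all arrays each of these 4 had an adjusted p of 0.453. With wild-type banded 3 left out as well, 29 genes passed, Ccdc141 and Plat among them, and Fitm1 and Otulin did not (adjusted p = 0.0573 and 0.0708).

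Mpv17 and Ppp1r3b had banded and sham arrays that did not overlap in either genotype and lay apart in opposite directions. Their knockout minus wild-type differences were -1.05 and -0.96 on the log2 scale, with an adjusted p of 0.453 each in limma with all arrays. Over all genes wild-type arrays were apart upward for 3.69% and downward for 6.05%, and neither wild-type change passed. Without knockout banded 1, Mpv17 passed (adjusted p = 0.0207) and Ppp1r3b did not (0.0717), and with wild-type banded 3 left out too neither passed (0.0573 and 0.125).

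Probe sets that name several genes or none stood outside the comparisons. Of 10092, 92 passed for banding in knockout hearts without knockout banded 1, 27 higher and 65 lower, and 0 passed in limma with all arrays, where 833 had an unadjusted p under 0.05. Groups of 3 arrays were not tested for single outlying values.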

How the results depend on the processing

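The count of 233 probe sets for banding in knockout hearts depended on the setting. It was 281 with log2(value + 1), 236 after quantile normalization, 502 in the upper 60% of probe sets by mean, 416 with 1 probe set per gene in the upper 60% of genes, 140 with log2(value + 64), 83 with median scaling, 6 with eBayes without trend, 1594 with array weights and 9 with only the groups compared. Leaving out each array gave 2 to 1735. With the replicate number as a block, 20 passed. Same-numbered knockout arrays deviated together at correlations of -0.0516, -0.0373 and 0.00909, and 0 knockout arrays correlated best with their own number. With 3 arrays per group these values show no pairing by number but cannot exclude one, and the labels give none. For wild-type banding the count was 0 under every setting run except log2(value + 1), with 2, and 0 with each array left out. For the genotype difference it was 1 in the upper 60% of probe sets, 1 with log2(value + 64) and 1 with array weights, and 0 to 169 with each array left out. With knockout banded 1 and wild-type banded 3 both left out, chosen after seeing the data, 1653 probe sets passed for knockout banding, 0 for wild-type banding and 52 for the difference. Of 59 named genes, 49 called with all arrays, 1293 pairs of gene and setting kept the direction in every case: 752 kept their side of the threshold, 522 lost a call and 19 gained one. The Apln difference ran from 0.63 to 1.16. Apart from fewer features or arrays in some fits, the causes of these shifts were not tested.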
